A study of Oryctolagus cuniculus with 12 samples.

Results

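Corneas of rabbits labelled GL were set against control corneas of the same series, 3 libraries a side, to ask which transcripts differed after the exposure that GL names. Of the 29076 genes in the deposited table, 13248 had an FPKM of at least 1 in 3 or more of these 6 libraries, and these were compared. FPKM is the number of fragments assigned to a gene relative to its length and to the library's fragments, so it can be set beside that of another gene. The whole series holds 12 libraries, 3 each labelled GL, blue_light, RL and control. Per the labels every animal was fed a normal diet and was 6 months old, and a text of 6 weeks of light exposure is attached to all libraries, also to those of the controls. The labels do not spell out GL or RL, and the sources used here give no wavelength, intensity or strain. Tissue is given as cornea without a layer, so each library mixes the RNA of all corneal cell types. A lower value in such bulk tissue can come from fewer cells of a type or from less RNA per cell, and these cannot be told apart. Nothing in the labels ties a library to an animal, so the spread between libraries that p-values rest on may be technical.

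The cornea is a transparent tissue of a stratified outer epithelium, a collagen-rich stroma made by keratocytes, and a single-layered inner endothelium that pumps fluid out of the stroma. Its clarity rests on orderly collagen fibrils spaced by small proteoglycans, and on water and solute transport across both cell layers. The corneal epithelium renews itself from stem cells at the limbus, the rim where the cornea meets the conjunctiva, and it makes the keratin pair KRT3 and KRT12. Genes that light or stress can move in many tissues include the clock genes, the immediate early genes that respond within minutes, heat shock chaperones and enzymes that remove reactive oxygen.

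The GL libraries were the deeper ones. Their total counts were 63.6 ± 1.73 M (mega), against 49.4 ± 6.61 M in control libraries (SD, n = 3 each, two-sided exact permutation p = 0.1, the smallest that 3 against 3 allows). Low counts step by about 3.74, which leaves about 16.5 to 17.3 M fragments in GL and 11.9 to 15.2 M in control libraries. Control library 1 also held 2561 genes at counts of 1 to 20, against 767 to 1461 in the 3 GL libraries and 1039 and 1300 in the other controls. The labelled tissue matched its markers in all 6 libraries. KRT12 stood at 12025 to 12733 FPKM in GL and 7739 to 11858 FPKM in control. KERA, which encodes the keratan sulfate proteoglycan keratocan, stood at 1914 to 2246 FPKM in GL and 1829 to 3268 FPKM in control. DCN, the collagen-binding proteoglycan decorin, stood at 6469 to 7263 FPKM in GL and 5829 to 9031 FPKM in control. Retinal transcripts marked GL library 3 and control library 2. The summed FPKM of 19 retinal genes was 11.2, 5.83 and 301.7 in GL libraries 1 to 3, against 4.902, 64.1 and 5.43 in control libraries 1 to 3.

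Few single genes separated GL from control beyond the spread between libraries. Of the 13248 genes, 10 (0.0755%) changed at an adjusted p below 0.05 in edgeR's quasi-likelihood test with Benjamini-Hochberg adjustment. In that test 1 gene (0.00755%) was higher in GL and 9 (0.0679%) were lower, and 8 of the 10 are entries without a gene symbol. The pair with symbols, HSPA13 and RPL39, were both lower. Without adjustment 1104 genes (8.33%) had a p below 0.05, of which 532 (4.02%) were higher and 572 (4.32%) lower in GL. The log2 difference lay above 0 for 49.5% of all tested genes and its median was −0.00335, with the middle 50% of genes between −0.27 and 0.23. Every GL library lay above every control library for 1257 genes (9.49%) and below for 1595 genes (12.0%). The number of changed genes rested on single libraries. Leaving out GL library 1 gave 3 changed genes, GL library 2 gave 19 and GL library 3 gave 7. Leaving out control library 1 gave 22, control library 2 gave 5 and control library 3 gave 4. It was 1 without the 3 libraries of the series with the most retinal transcripts, namely GL 3, control 2 and blue_light 1.

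**Figure D1:**
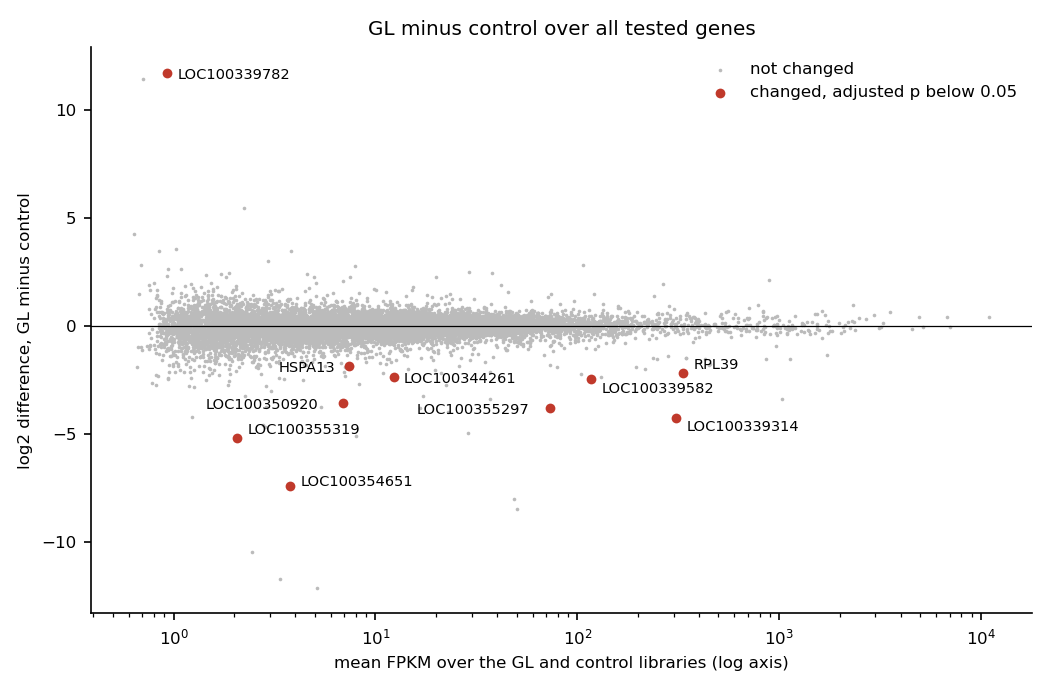
Each point is 1 of the 13248 tested genes, with its mean FPKM over the 6 libraries on a log axis and its fitted log2 difference, GL minus control, on the vertical axis. The 10 changed genes are red, 1 above 0 and 9 below. Fitted differences beyond about 5 in size belong to genes with libraries at or near 0 and depend on the prior count of the fit.

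HSPA13 fell in GL corneas. It encodes a microsomal member of the HSP70 chaperone family, and it lies on chromosome 14 at bases 142215376 to 142227082 of the deposited coordinates, whose build the sources used here do not name. It stood at 2.18, 3.45 and 3.87 FPKM in GL and 11.6, 11.1 and 12.1 FPKM in control. All 3 GL libraries lay below all 3 controls, and the lowest control was well above the highest GL library. The difference was log2 −1.83 ± 0.24 SE, adjusted p = 0.0123, so control stood 3.55-fold above GL. The blue_light and RL libraries stood with the controls, at 15.2, 12.6 and 10.9 FPKM in blue_light and 14.7, 9.34 and 13.6 FPKM in RL. Against the mean of these light groups GL was lower by log2 −1.995 ± 0.223 SE (adjusted p = 0.00489). The call against control ended without GL library 1 (log2 −1.61, adjusted p = 0.0661), without control 2 (−1.84, 0.059) and without control 3 (−1.80, 0.0551). It also ended with log2 library size as a covariate (−1.58, 0.123), in a fit of the 7 libraries with fewer genes at low counts (−1.83, 0.0673) and without the 3 retinal libraries (−2.02, 0.21), and the sign held in all 21 alternatives.

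No other gene of the HSP70 family and its cochaperones passed the test. Only 0.0755% of all tested genes did, so an absence of calls in a list, here and below, says little about it. Of 18 tested members, HSPA13 alone fell, none rose, 10 differences lay above 0 and 8 below, and the median was 0.02. HSPA14, an HSP70-like protein of the ribosome-associated complex, stood at 20.7, 17.5 and 14.4 FPKM in GL and 22.9, 21.8 and 24.6 FPKM in control, and these did not overlap (log2 −0.36 ± 0.16 SE, adjusted p = 0.591). HSPA4L, an HSP110-type exchange factor, stood at 3.36, 3.29 and 2.21 FPKM in GL and 5.13, 3.36 and 6.58 FPKM in control, with overlap. In the heat shock list 0 of 12 tested members changed, with a median of −0.06. There HSF2, a heat shock transcription factor, stood at 5.91, 5.48 and 3.96 FPKM in GL and 8.69, 7.96 and 7.81 FPKM in control. The small chaperone gene CRYAB, which also encodes a lens crystallin, stood at 375, 835 and 755 FPKM in GL and 1371, 1567 and 877 FPKM in control. Among 21 tested genes of the unfolded protein response 0 changed and the median was 0.02. DDIT3, the transcription factor CHOP of that response, had 19.5, 18.6 and 16.5 FPKM in GL and 23.8, 27.7 and 35.2 FPKM in control, with an unadjusted p of 0.00594 and an adjusted p of 0.422 in edgeR.

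Of the 9 lower entries, 6 are copies annotated as the ribosomal protein gene RPL17, a component of the large ribosomal subunit. These copies are 589 to 641 bases long and lie on chromosomes 1, 2, 11, 13 and 17, with a pair on 17. The most abundant, LOC100339314 on chromosome 2 at bases 27709518 to 27710158, stood at 42.6, 23.9 and 22.9 FPKM in GL and 943, 502 and 316 FPKM in control (log2 −4.26 ± 0.49 SE, adjusted p = 0.00532). LOC100355297 on chromosome 11 had 7.795, 14.4 and 7.09 FPKM in GL and 124, 161 and 127 FPKM in control (log2 −3.78 ± 0.36 SE, adjusted p = 0.00111). LOC100339582 had 30.9, 34.7 and 40.1 FPKM in GL and 196, 155 and 244 FPKM in control (log2 −2.44 ± 0.32 SE, adjusted p = 0.0123). In each of these copies no GL library came near the lowest control library. LOC100350920 had 1.34, 0.876 and 0.957 FPKM in GL and 13.7, 11.96 and 12.7 FPKM in control (log2 −3.55 ± 0.50 SE, adjusted p = 0.0176). The remaining copies were close to undetected in GL, where a fitted fold depends on the prior count. Both were tested only through the control libraries, so their lack of overlap follows from the filter. LOC100354651 stood at 0.0203, 0 and 0.0715 FPKM in GL and 11.2, 5.65 and 5.84 FPKM in control (adjusted p = 0.0123). LOC100355319 stood at 0.0814, 0.0242 and 0.189 FPKM in GL and 2.496, 5.68 and 3.96 FPKM in control (adjusted p = 0.0167).

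The summed RPL17 entries did not show that difference. The table holds 29 entries annotated as RPL17, of which 14 had counts in these 6 libraries. Their sum was 1105 ± 49.0 CPM in GL and 1263 ± 189.6 CPM in control (counts scaled to TMM library size, SD, n = 3 each), and control library 1, at 1048 CPM, lay below every GL library. What differed was the split among the entries. The 6 changed copies held 4.94%, 4.29% and 4.599% of the summed counts in GL libraries 1 to 3, against 79.7%, 39.9% and 34.1% in control libraries 1 to 3. LOC108175352, the entry that RefSeq names RPL17, held 92.3%, 93.2% and 92.6% in GL, against 8.34%, 52.8% and 53.8% in control. That entry itself stood at 1020, 1075 and 978 CPM in GL and 87.4, 743 and 718 CPM in control, and did not pass the test (log2 0.99, adjusted p = 0.664). Near-identical copies would share reads, but how alike the sequences of these copies are was not examined. The sources used here do not say how the authors' counting divided shared reads, so the level of any single copy is uncertain. Of the 6 calls, those of LOC100355297 and LOC100339314 held without each of the 6 libraries in turn. The others ended without GL library 1, with adjusted p from 0.0943 to 0.12 there, and all 6 ended without the 3 retinal libraries (0.114 to 0.556). LOC100339582 also ended without GL 3 (0.0596) and control 3 (0.0551), LOC100355319 without control 2 (0.0663) and control 3 (0.0551), and LOC100350920 without GL 2 (0.0716), GL 3 (0.154), control 2 (0.0663) and control 3 (0.064). With log2 library size as a covariate, LOC100339582 (adjusted p = 0.164), LOC100355319 (0.111) and LOC100350920 (0.113) ended. In a fit of 7 libraries with fewer genes at low counts, LOC100354651 and LOC100339582 (0.0636 each) and LOC100355319 (0.0804) ended, and LOC100355319 also ended in the fit of the 6 GL and control libraries alone (0.0772).

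**Figure D2:**
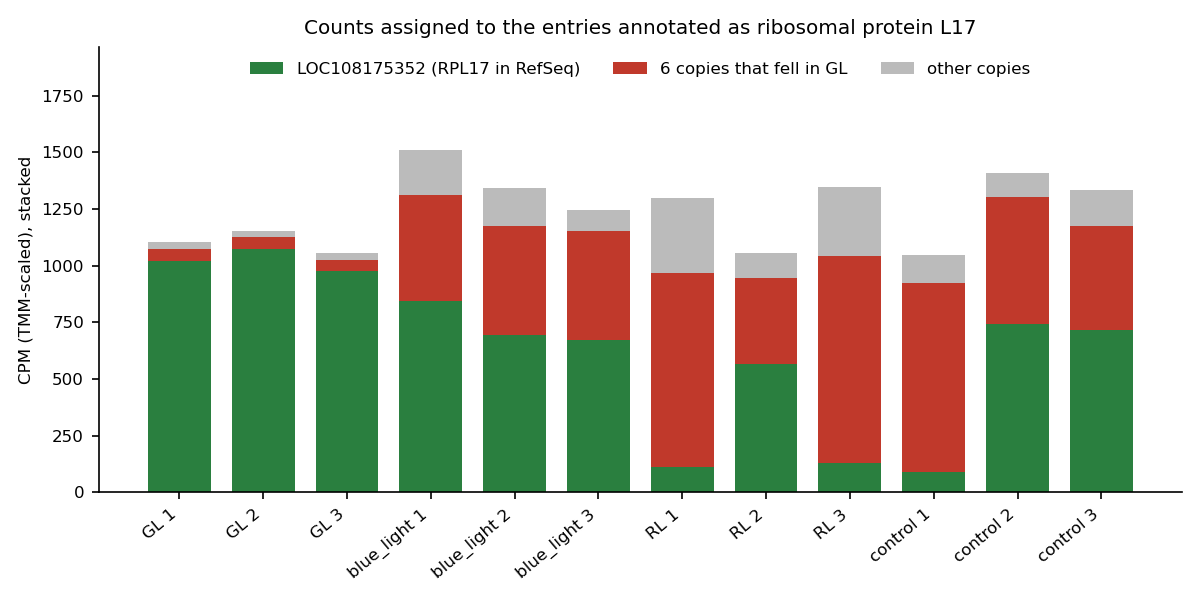
Stacked bars give the counts, scaled to TMM library size, assigned in each library to the entries annotated as ribosomal protein L17, from GL at the left to control at the right. In the GL bars LOC108175352 holds over 92% of the sum, while in the controls it holds 8.34% to 53.8% and the 6 changed copies hold 34.1% to 79.7%.

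RPL39, a small protein of the large subunit near the exit tunnel of the ribosome, was the remaining lower gene with a symbol. It lies on chromosome X at bases 68525263 to 68527920. It stood at 133, 121 and 100.3 FPKM in GL and 372, 634 and 647 FPKM in control. The highest GL library was below the lowest control, control library 1, and the difference was log2 −2.18 ± 0.34 SE, adjusted p = 0.0368. Its 5 other annotated copies with counts were minor, and the sum of all copies was 59.0 ± 7.86 CPM in GL and 259.9 ± 74.2 CPM in control. In blue_light it stood at 687, 534 and 323 FPKM and in RL at 302, 185 and 133 FPKM, so the RL libraries lay between GL and control except for 1 within the GL range. The call ended on leaving out any single library other than control 1, with adjusted p from 0.0993 to 0.3 and log2 between −2.27 and −2.05. It also ended with log2 library size as a covariate (log2 −1.75, adjusted p = 0.315), with a covariate for the 5 libraries of the series with many genes at low counts (0.0568) and without the 3 retinal libraries (0.725). Among 52 tested cytosolic ribosomal protein genes, RPL39 alone fell and none rose, with 35 differences below 0, 17 above and a median of −0.12. RPS27, of the small subunit, stood at 1335, 1203 and 1378 FPKM in GL and 1460, 2167 and 2277 FPKM in control, and did not pass (adjusted p = 0.538). RPL30 stood at 549, 577 and 511 FPKM in GL and 576, 827 and 852 FPKM in control, where control library 1 lay within the GL range.

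Each of the other changed entries has a related gene with a symbol. LOC100339782 on an unplaced sequence, annotated as a partial protein of the histone H3 lysine 4 methyltransferase gene KMT2A, had 1.54, 2.41 and 1.64 FPKM in GL and a count of 0 in each control library. It was tested only through the GL libraries, so the lack of overlap follows from the filter. Against a floor of 3 fragments in the control library with the highest floor, 0.0624 FPKM, the lowest GL library was at least 24.7-fold higher (adjusted p = 0.000257). Its call held in all 20 alternatives that gave it a value. The blue_light and RL libraries had 1.04 to 2.66 FPKM, so GL stood with them (log2 −0.15 against their mean, adjusted p = 0.828). KMT2A itself had 146.3, 168.5 and 164.2 CPM in GL and 156.6, 158.4 and 187.1 CPM in control. The sum of both entries was 167.3 ± 13.3 CPM in GL and 167.4 ± 17.1 CPM in control (SD, n = 3 each). LOC100344261 on chromosome X, annotated as like AHCY, which clears S-adenosylhomocysteine left by methylation, had 4.66, 2.91 and 4.31 FPKM in GL and 16.6, 28.2 and 17.2 FPKM in control (log2 −2.35 ± 0.33 SE, adjusted p = 0.0167). It too stood with the light groups, which had 3.04 to 6.25 FPKM (log2 −0.06 against their mean, adjusted p = 0.92). The main gene AHCY had 736, 768 and 784 CPM in GL and 502.5, 538 and 479 CPM in control, without overlap (log2 0.59, adjusted p = 0.43). How the counting divided reads between KMT2A or AHCY and its related entry was not tested. The call of LOC100344261 held only without control library 1 among single libraries left out, with adjusted p from 0.0551 to 0.1 otherwise, and it ended without the 3 retinal libraries (0.556).

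On the higher side in GL, the genes with a symbol nearest the threshold were picked among those whose groups did not overlap. Their separation between libraries is therefore set by the selection. They were a mixture of adhesion, lipid signalling and transcription factor genes, and none of them passed. SDK1, an immunoglobulin-family adhesion protein, stood at 5.37, 3.81 and 5.86 FPKM in GL and 1.14, 1.83 and 2.05 FPKM in control (log2 1.62 ± 0.28 SE, adjusted p = 0.0822). Its lowest GL library was well above its highest control. PNPLA6, a phospholipase that removes fatty acids from lysophosphatidylcholine, stood at 16.1, 13.04 and 16.98 FPKM in GL and 7.09, 9.86 and 8.398 FPKM in control (log2 0.90 ± 0.17 SE, adjusted p = 0.126). LPAR3, a receptor for lysophosphatidic acid, stood at 26.3, 22.1 and 30.3 FPKM in GL and 14.2, 7.74 and 7.82 FPKM in control (log2 1.45 ± 0.28 SE, adjusted p = 0.148), and control library 1 was the nearest to GL. CEMIP, which takes part in breaking down hyaluronan, was the most abundant of them, at 187, 152 and 194 FPKM in GL and 74.6, 94.7 and 102 FPKM in control (log2 1.01 ± 0.21 SE, adjusted p = 0.204). DLX3, a homeobox factor of ectodermal differentiation, stood at 9.14, 11.1 and 11.7 FPKM in GL and 4.98, 4.09 and 4.47 FPKM in control (log2 1.28 ± 0.25 SE, adjusted p = 0.148). TRIM25, a ubiquitin ligase that acts in RNA sensing by RIG-I, stood at 7.83, 7.17 and 7.66 FPKM in GL and 5.13, 2.92 and 2.85 FPKM in control (log2 1.10 ± 0.22 SE, adjusted p = 0.159). Without control library 1, LPAR3 (adjusted p = 0.0305) and TRIM25 (0.00995) passed the threshold, and SDK1 passed without GL library 2 (0.0482).

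HPN, the membrane serine protease hepsin, stood at 30.4, 18.1 and 23.8 FPKM in GL and 10.6, 11.7 and 13.7 FPKM in control. TMEM30B, a subunit of phospholipid flippases, stood at 19.3, 17.1 and 22.6 FPKM in GL and 10.7, 10.8 and 10.02 FPKM in control. Both genes had an adjusted p of 0.216. PIGS, part of the enzyme that attaches glycolipid anchors to proteins, stood at 23.8, 23.5 and 21.1 FPKM in GL and 15.4, 13.4 and 13.3 FPKM in control. MPP7, a scaffold of cell polarity, stood at 16.3, 12.1 and 16.8 FPKM in GL and 9.32, 7.55 and 6.68 FPKM in control. NECTIN4, an adhesion protein of epithelia, stood at 74.6, 85.5 and 62.7 FPKM in GL and 40.3, 51.2 and 50.3 FPKM in control. These differences were 0.69 to 0.98 on the log2 scale, with adjusted p from 0.236 to 0.317. The transcription factor gene ETS1 stood at 8.63, 7.43 and 7.91 FPKM in GL and 4.84, 4.28 and 4.45 FPKM in control. BATF2, an interferon-responsive factor, stood at 9.21, 7.59 and 9.38 FPKM in GL and 4.801, 3.61 and 3.51 FPKM in control. NOTCH3, a receptor of the Notch family, had 16.9, 21.3 and 20.2 FPKM in GL and 10.9, 10.2 and 11.96 FPKM in control. ZNF574, a zinc finger gene, had 9.41, 10.2 and 10.9 FPKM in GL and 4.46, 4.81 and 5.14 FPKM in control. These 4 genes had adjusted p from 0.25 to 0.317, and their lack of overlap, too, was set by the selection.

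CYP26A1, the enzyme that degrades retinoic acid, stood close to the threshold as the entry LOC100346910, which RefSeq gives that symbol. It had 73.3, 42.2 and 81.7 FPKM in GL and 26.5, 17.2 and 10.7 FPKM in control (log2 1.90 ± 0.34 SE, adjusted p = 0.0917). The highest control, library 1, lay below the lowest GL library, library 2. It passed the threshold without GL library 2 (log2 2.14, adjusted p = 0.0325) and without control library 1 (log2 2.27, adjusted p = 0.0279). The blue_light libraries had 25.96 to 41.4 FPKM and the RL libraries 44.4 to 57.1 FPKM, and GL did not differ from their mean beyond the spread (log2 0.64 ± 0.27 SE, adjusted p = 0.284). In the list of 20 tested retinoid and aldehyde genes, 0 changed, 14 differences lay above 0 and 6 below, and the median was 0.17, below 0 with log2 library size as a covariate. ALDH1A2, which makes retinoic acid, had 44.9, 29.7 and 56.5 FPKM in GL and 54.3, 96.6 and 66.3 FPKM in control. LRAT, which stores retinol as esters, had 3.55, 2.09 and 4.31 FPKM in GL and 4.21, 6.48 and 7.38 FPKM in control, and both genes overlapped between the groups.

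Among genes with a symbol and without overlap, PLSCR4, a phospholipid scramblase, came nearest the threshold on the lower side without passing. It stood at 5.73, 5.41 and 5.49 FPKM in GL and 21.6, 13.6 and 19.7 FPKM in control (log2 −1.68 ± 0.30 SE, adjusted p = 0.0917), and the 3 GL libraries lay close together below all 3 controls. PLSCR4 passed in an edgeR fit of the 6 GL and control libraries alone (adjusted p = 0.0113). PHACTR2, a regulator of actin and protein phosphatase 1, stood at 11.6, 6.599 and 8.401 FPKM in GL and 24.1, 18.5 and 16.4 FPKM in control (log2 −1.11 ± 0.21 SE, adjusted p = 0.126). CHAT, which makes acetylcholine and is known from corneal epithelium, stood at 2.33, 2.65 and 1.58 FPKM in GL and 6.23, 14.5 and 22.5 FPKM in control (log2 −2.68 ± 0.54 SE, adjusted p = 0.185), and it passed without control library 1 (adjusted p = 0.0462). POLI, a polymerase that copies past DNA lesions, stood at 13.3, 6.53 and 8.36 FPKM in GL and 36.6, 23.02 and 27.8 FPKM in control (log2 −1.59 ± 0.37 SE, adjusted p = 0.302). Genes on this side were picked among those without overlap, so every GL library lay below every control by selection. ATP13A3, a transport ATPase, stood at 2.49, 2.41 and 1.95 FPKM in GL and 8.72, 5.75 and 7.75 FPKM in control. AAK1, a kinase of clathrin-mediated uptake, stood at 1.55, 1.09 and 1.197 FPKM in GL and 4.88, 1.73 and 4.53 FPKM in control. UHRF1BP1 stood at 9.11, 7.304 and 7.83 FPKM in GL and 13.2, 12.8 and 14.95 FPKM in control. LUZP2 stood at 0.888, 1.402 and 1.72 FPKM in GL and 4.55, 4.09 and 3.22 FPKM in control. The zinc finger gene ZNF248 stood at 0.254, 0.399 and 0.839 FPKM in GL and 2.66, 1.99 and 2.21 FPKM in control. ATP6AP1L stood at 0.682, 0.4704 and 0.979 FPKM in GL and 2.79, 1.94 and 1.94 FPKM in control. In ZNF248 and ATP6AP1L all GL libraries were under 1 FPKM, so both were tested only through the control libraries and their lack of overlap follows from the filter. These 6 genes had adjusted p from 0.129 to 0.321. ZNF248 passed without GL library 3 (0.0297), and ATP13A3 passed in the fit of the 6 GL and control libraries alone (0.012).

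**Figure D3:**
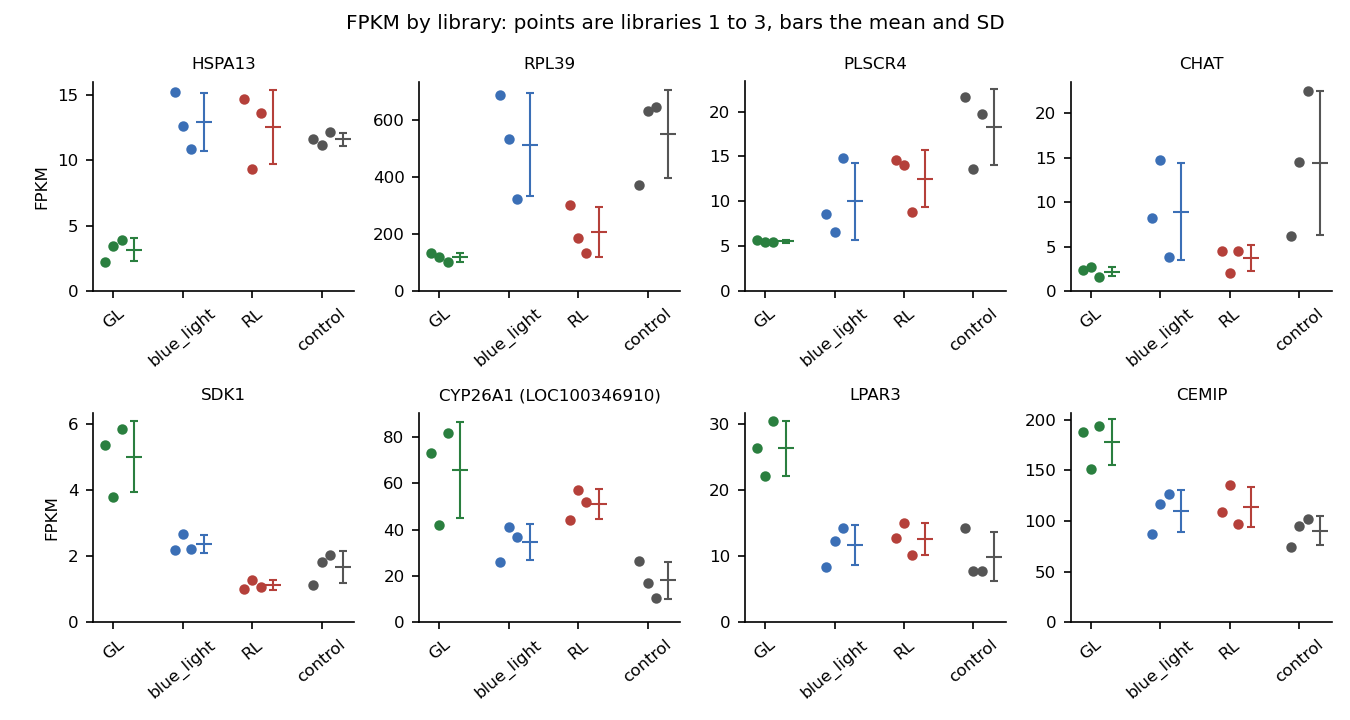
Points are the FPKM of single libraries, numbered 1 to 3 from left to right within each group, and bars are the mean with its SD. HSPA13 is at 2.18 to 3.87 FPKM in GL and at 9.34 FPKM or more in every other library, while for CHAT and RPL39 an RL library lies within the GL range. SDK1, LPAR3 and CEMIP are highest in GL, above all 9 other libraries.

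Genes of the corneal epithelium stood mostly higher in GL, although no member passed the test. Of 18 tested markers, 15 differences lay above 0, the median was 0.38, 8 markers had every GL library above every control (9.49% of all tested genes) and 2 had every one below (12.0%). AQP3, the glycerol and water channel of basal epithelium, stood at 370.1, 389 and 342 FPKM in GL and 181, 192 and 226 FPKM in control (log2 0.92 ± 0.25 SE, adjusted p = 0.399). In an edgeR fit of the 6 GL and control libraries alone AQP3 passed (adjusted p = 0.0456). AQP5, the water channel of the outer epithelium, stood at 1878, 1941 and 2108 FPKM in GL and 1336, 1249 and 1255 FPKM in control (log2 0.67 ± 0.23 SE, adjusted p = 0.497). In both water channels the GL libraries lay above all controls. TGFBI, a secreted matrix protein mutated in corneal dystrophies, stood at 884, 1013 and 1035 FPKM in GL and 874, 694 and 694 FPKM in control. KRT12 had 12733, 12181 and 12025 FPKM in GL and 11858, 9337 and 7739 FPKM in control (log2 0.39, adjusted p = 0.6). The summed FPKM of the list was 20890 to 21633 in GL and 14148 to 19209 in control. The median was 0.10 with log2 library size as a covariate, and total counts were higher in every GL library than in every control, so depth moved with this list and its part was not tested.

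The stem cell side of the epithelium did not stand out. Of 10 tested limbal and basal markers, 4 differences lay above 0 and 6 below, with a median of −0.09. NGFR, a neurotrophin receptor of basal limbal cells and nerve sheaths, had 21.1, 29.8 and 29.8 FPKM in GL and 13.96, 9.56 and 17.96 FPKM in control, without overlap (adjusted p = 0.517). ITGB4, the hemidesmosome integrin, had 40.6, 44.7 and 34.3 FPKM in GL and 57.6, 42.3 and 67.5 FPKM in control, with overlap. COL17A1, a collagen of the same structure, had 339, 394 and 329.8 FPKM in GL and 326, 191 and 367 FPKM in control, also with overlap. Conjunctival and goblet cell markers had 8 tested members, a median of 0.24 and none without overlap. Over all tested genes 21.5% were without overlap, so this says little for 8 members. Epithelial junction genes had 20 tested, a median of −0.01 and 0 changed, and NECTIN1 stood at 46.7, 62.4 and 48.3 FPKM in GL and 31.8, 32.9 and 43.03 FPKM in control. Genes of cornification had 13 tested, a median of 0.02 and 0 changed. SPINK5, an inhibitor of skin proteases, had 3.09, 1.51 and 1.397 FPKM in GL and 5.27, 2.99 and 3.93 FPKM in control, with overlap. Corneal transcription factors had 19 tested, 13 above 0 and a median of 0.17. OVOL2, an epithelial identity factor, had 7.14, 6.07 and 9.68 FPKM in GL and 4.78, 3.14 and 4.61 FPKM in control. PAX6, which directs eye development, had 283, 222 and 239 FPKM in GL and 336, 289 and 319 FPKM in control (adjusted p = 0.709).

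Stromal genes were uneven among themselves. Of 19 tested keratocyte markers, 13 differences lay above 0 and 6 below, with a median of 0.14, and 6 markers had every GL library above every control (9.49% of all tested genes). CHST6, the sulfotransferase that sulfates keratan sulfate, is the entry LOC100351319 and had 53.9, 54.6 and 60.2 FPKM in GL and 28.3, 41.1 and 37.5 FPKM in control (adjusted p = 0.59). PRELP, a leucine-rich proteoglycan, had 87.3, 132 and 107 FPKM in GL and 30.2, 65.8 and 70.2 FPKM in control. The related gene BGN, biglycan, had 31.95, 41.1 and 34.9 FPKM in GL and 61.7, 101 and 71.9 FPKM in control. Neither gene's groups overlapped, and the differences ran in opposite directions. Among 13 tested small leucine-rich proteoglycans, 6 differences lay above 0 and 7 below (median −0.03). Of 23 tested collagen genes 0 changed, with a median of 0.07 and a summed FPKM over 24 genes of 11213 to 12602 in GL and 7267 to 9435 in control. COL1A1 had 2714, 3235 and 3170 FPKM in GL and 938, 1811 and 1979 FPKM in control (log2 0.99 ± 0.60 SE, adjusted p = 0.624), and its sign turned with log2 library size as a covariate. COL6A1, of the filaments around keratocytes, had 587, 559 and 595 FPKM in GL and 394, 429.7 and 481 FPKM in control. THBS2, an inhibitor of vessel growth, had 116, 128 and 113 FPKM in GL and 64.9, 71.1 and 79.2 FPKM in control. Markers of myofibroblasts and smooth muscle had 11 tested and a median of −0.29. There POSTN, a matricellular protein of remodelling tissue, had 5.12, 3.11 and 5.18 FPKM in GL and 10.4, 12.4 and 12.4 FPKM in control, without overlap. TPM1, a tropomyosin, had 60.02, 61.1 and 56.4 FPKM in GL and 50.9, 41.7 and 28.1 FPKM in control.

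Genes of hyaluronan turnover and of lysophospholipid signalling mostly stood higher in GL, with no member past the threshold. Of 9 tested hyaluronan genes, 7 differences lay above 0 (median 0.45), 4 had every GL library above every control (9.49% of all tested genes did) and 0 passed the test. The member farthest from 0, STAB1, a scavenger receptor gene, lay the other way, at 0.407, 0.406 and 0 FPKM in GL and 1.03, 1.03 and 1.07 FPKM in control (log2 −1.91, adjusted p = 0.6). It was tested only through the control libraries, so its lack of overlap follows from the filter. Beside CEMIP, the hyaluronidase gene HYAL2 stood at 23.3, 26.8 and 23.2 FPKM in GL and 16.5, 20.4 and 13.1 FPKM in control. HYAL1, another hyaluronidase gene, stood at 22.6, 18.2 and 25.4 FPKM in GL and 16.03, 16.6 and 17.5 FPKM in control. The summed FPKM of the list was 242.6 to 280.7 in GL and 150 to 172.6 in control. Of 18 tested lysophospholipid genes, 14 lay above 0 (median 0.35), 7 had every GL library above every control (9.49% of all tested genes), 1 had every one below (12.0%) and 0 passed. The median was 0.12 with log2 library size as a covariate. Beside LPAR3 and PNPLA6, SPHK1, which makes sphingosine-1-phosphate, stood at 3.61, 4.26 and 3.31 FPKM in GL and 1.73, 2.37 and 1.47 FPKM in control. Its receptor gene S1PR1 stood at 28.3, 11.4 and 28.7 FPKM in GL and 15.1, 4.15 and 3.399 FPKM in control, with control library 1 inside the GL range. Of 15 tested genes that move phospholipids across membranes, 5 lay above 0 and 10 below (median −0.06), with PLSCR4 the lowest. Matrix proteases and their inhibitors had 20 tested, 13 above 0 and a median of 0.12.

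Immediate early genes stood mostly lower in GL, again with no member past the adjusted threshold. Of 21 tested, 14 differences lay below 0 and 7 above, the median was −0.37, and 6 were lower at an unadjusted p below 0.05 (4.32% of all tested genes). FOS, a subunit of the AP-1 transcription factor, stood at 39.7, 33.2 and 53.2 FPKM in GL and 273, 313 and 77.9 FPKM in control (log2 −2.36 ± 0.56 SE, adjusted p = 0.302). DUSP1, a phosphatase of MAP kinases, stood at 20.4, 44.1 and 31.5 FPKM in GL and 146, 156 and 43.5 FPKM in control (log2 −1.81 ± 0.53 SE, adjusted p = 0.409), and its lowest control lay within the GL range. JUN, the partner of FOS in AP-1, stood at 9.25, 21.3 and 12.8 FPKM in GL and 39.96, 70.7 and 22.1 FPKM in control (log2 −1.58 ± 0.57 SE, adjusted p = 0.52). ZFP36, which marks mRNAs for decay, stood at 37.9, 40.8 and 34.7 FPKM in GL and 120, 143 and 33.2 FPKM in control (log2 −1.35 ± 0.49 SE, adjusted p = 0.528). In all 4 genes control library 3 was the lowest control, far below the other controls. The summed FPKM of the list was 495.4, 764.5 and 573.4 in GL, against 1140, 1349 and 673.6 in control, and it ran from 501.1 to 1761 over the blue_light and RL libraries. The median stayed below 0 in all 17 edgeR alternatives, at −1.003 to −0.298.

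Clock and light-sensing genes gave no called gene, against 0.0755% of all tested genes. Of 17 tested clock genes 0 changed, 8 lay above 0 and 9 below, and the median was −0.04. PER1, a repressor of the clock that stress also induces, had 14.1, 25.99 and 13.2 FPKM in GL and 24.2, 35.8 and 47.1 FPKM in control (log2 −0.97 ± 0.30 SE, adjusted p = 0.429), with overlap. ARNTL, the activator BMAL1, had 14.9, 14.2 and 11.96 FPKM in GL and 13.2, 8.24 and 9.05 FPKM in control, also with overlap (adjusted p = 0.566). HLF, a clock output factor, had 69.4, 74.7 and 64.8 FPKM in GL and 83.1, 94.8 and 96.3 FPKM in control, without overlap. Of 7 opsin genes 3 were tested. OPN3, encephalopsin, had 39.7, 18.1 and 29.8 FPKM in GL and 10.5, 18.7 and 15.2 FPKM in control (log2 1.02 ± 0.32 SE, adjusted p = 0.435), with control library 2 inside the GL range. OPN5, neuropsin, had 3.35, 4.53 and 1.44 FPKM in GL and 2.87, 1.97 and 3.89 FPKM in control.

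Oxidative and DNA damage responses gave no called gene, against 0.0755% of all tested genes. Of 20 tested antioxidant genes and targets of NRF2, 13 lay above 0, the median was 0.20, 5 had every GL library above every control (9.49% of all tested genes) and none had every one below (12.0%). SOD3, the extracellular superoxide dismutase, stood at 68.6, 109.8 and 127 FPKM in GL and 35.04, 48.95 and 39 FPKM in control (log2 1.36 ± 0.43 SE, adjusted p = 0.438). NQO1, a quinone reductase, stood at 30.7, 28.6 and 32.5 FPKM in GL and 24.4, 24.2 and 19.9 FPKM in control. TXNRD1, thioredoxin reductase, stood at 55.3, 64.9 and 57.8 FPKM in GL and 48.2, 50.4 and 49.9 FPKM in control. Of 17 tested genes of the DNA damage response the median was 0.14. Of 20 tested apoptosis genes the median was 0.20, and BCL2L11, the activator BIM, had 3.54, 3.33 and 3.597 FPKM in GL and 2.28, 2.095 and 2.32 FPKM in control (log2 0.69 ± 0.20 SE, adjusted p = 0.399).

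Among markers of other cells that an excised cornea can carry, lens genes were lower in every GL library than in every control. Of 16 lens genes 15 were tested, all 15 differences lay below 0 (median −1.54) and all 15 had every GL library below every control, against 12.0% of all tested genes. Among them GJA3, at 0.108 to 0.457 FPKM in GL and 1.21 to 2.05 FPKM in control, was tested only through the control libraries. Its separation follows from the filter. None passed the adjusted threshold. LENEP, a protein of lens epithelial cells, stood at 2.097, 2.56 and 4.12 FPKM in GL and 7.95, 14.98 and 10.7 FPKM in control (log2 −1.89 ± 0.44 SE, adjusted p = 0.302). BFSP1, filensin of the lens fibre skeleton, stood at 5.66, 11.7 and 15.95 FPKM in GL and 25.5, 61.3 and 35.6 FPKM in control. Its partner BFSP2, phakinin, stood at 2.68, 8.99 and 10.98 FPKM in GL and 17.7, 50.02 and 27.9 FPKM in control. The summed FPKM of the list was 1067, 4161 and 4463 in GL, against 7799, 11291 and 7156 in control. The sum was 22191, 2813 and 3391 in blue_light libraries 1 to 3 and 943, 3930 and 3528 in RL libraries 1 to 3. All of these but blue_light library 1 lay below every control, so a lower lens sum was not particular to GL. The 15 genes mark 1 tissue and are not independent of each other.

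The retina list had 4 of 19 genes tested and a median of 2.28, which turned to −0.98 without GL library 3. GUCA1B, a guanylate cyclase activator of photoreceptors, had 1.098, 0 and 23.5 FPKM in GL and 0, 5.15 and 0 FPKM in control. The corneal endothelium had 14 tested markers, 7 differences on each side of 0 and a median of 0.002. Vessel markers had 4 of 14 tested with a median of 0.17, and KDR, a receptor of VEGF, had 15.7, 22.8 and 19.03 FPKM in GL and 14.8, 14.1 and 16.6 FPKM in control. Macrophage and dendritic markers had 6 of 13 in the table tested and a summed FPKM of 58.3 to 81.1 in GL and 59.9 to 77.3 in control. All 11 T cell genes were in the table, none was tested, 3 had 0 counts in all 6 libraries, and their summed FPKM was 1.36 to 2.55 in GL and 0.571 to 2.58 in control. Schwann cell and nerve markers had 9 tested with a median of 0.20. Pigment cell markers had 4 tested and a summed FPKM of 55.9 to 61.5 in GL and 56.8 to 61.9 in control. In the adipocyte list 3 genes were tested and in the skeletal muscle list 1. LPL, a lipase of fat and other tissues, had 3.02, 1.23 and 3.39 FPKM in GL and 1.497, 21.5 and 11.4 FPKM in control.

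**Figure D4:**
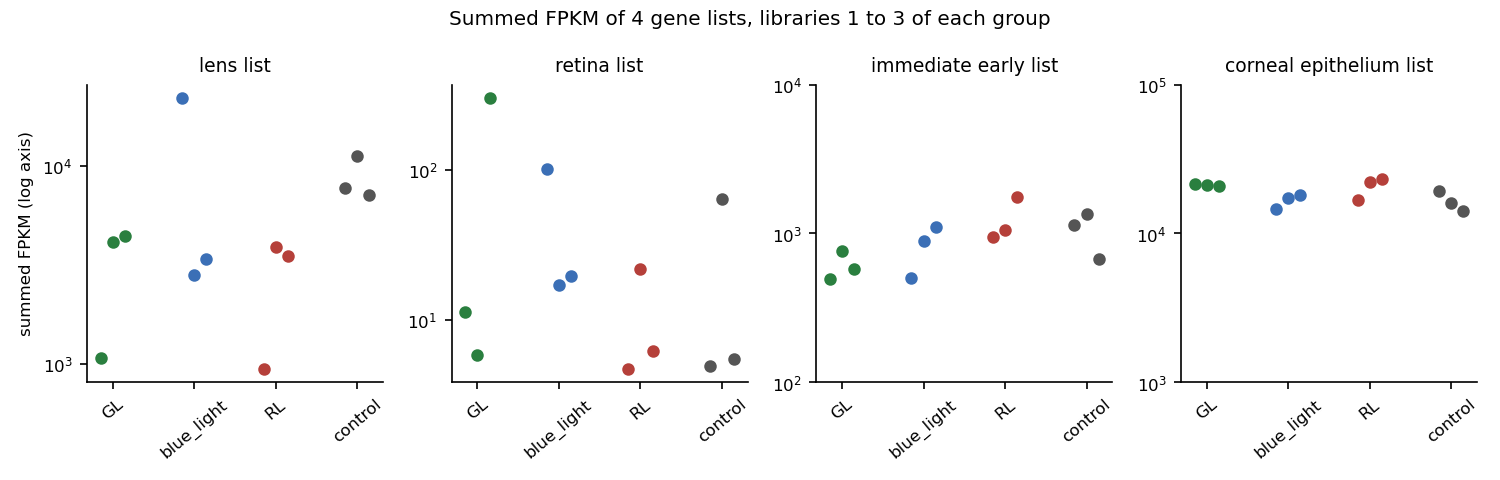
Points are single libraries, numbered 1 to 3 from left to right within a group, and the vertical axes are the summed FPKM of 4 gene lists on a log scale. Lens genes are lower in all GL libraries than in all controls but span the widest range in blue_light, retinal genes peak at 301.7 in GL library 3, and the corneal epithelium list lies at 20890 to 21633 in GL.

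Signalling pathways gave no called member, against 0.0755% of all tested genes. Of 24 tested Wnt genes 17 lay above 0 (median 0.32). WNT10A, an epithelial Wnt ligand, had 12.5, 13.2 and 10.4 FPKM in GL and 6.94, 5.64 and 7.29 FPKM in control (log2 0.91 ± 0.33 SE, adjusted p = 0.52). WNT6, another ligand, had 7.77, 3.596 and 7.69 FPKM in GL and 2.96, 2.57 and 3.45 FPKM in control. The inhibitor gene NKD1 had 4.18, 6.26 and 3.71 FPKM in GL and 6.15, 7.703 and 8.69 FPKM in control, with overlap. Of 22 tested TGF-beta and BMP genes 15 lay above 0 (median 0.14), and SMAD3, a signal transducer, had 24.5, 26.4 and 26.7 FPKM in GL and 18.1, 18.6 and 22.9 FPKM in control. Of 13 tested EGF receptor genes 8 lay above 0 (median 0.12), and the receptor gene ERBB2 had 42.8, 43.2 and 45.4 FPKM in GL and 33.2, 27.7 and 30.6 FPKM in control (log2 0.56 ± 0.17 SE, adjusted p = 0.429). Of 18 tested Hippo pathway genes the median was 0.08, and YAP1, the coactivator that the pathway restrains, had 37.5, 39.3 and 37.5 FPKM in GL and 57.7, 52.1 and 62.8 FPKM in control (log2 −0.55 ± 0.19 SE, adjusted p = 0.497). Of 10 tested Notch genes the median was 0.11. Of 16 tested interferon genes the median was 0.11, of 9 tested cytokine and adhesion genes 0.05, of 10 tested angiogenesis factors 0.20 and of 5 tested cholinergic genes −0.02.

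Metabolic and growth lists differed by small amounts. Of 28 tested cell cycle genes 22 lay above 0 (median 0.22), 4 had every GL library above every control, near the 9.49% of all tested genes that did, and 0 changed. CCNB1, cyclin B1, stood at 15.5, 7.596 and 9.796 FPKM in GL and 6.43, 3.502 and 4.93 FPKM in control (log2 1.19 ± 0.31 SE, adjusted p = 0.371). E2F1, a factor of S phase entry, stood at 2.76, 1.85 and 0.951 FPKM in GL and 3.34, 3.04 and 3.45 FPKM in control, lower in every GL library. Of 20 tested cholesterol and fatty acid synthesis genes 15 lay above 0 (median 0.19). ACACA, acetyl-CoA carboxylase, had 14.6, 12.4 and 18.6 FPKM in GL and 8.996, 10.5 and 12.01 FPKM in control. SREBF1, which regulates such genes, had 64.1, 68.2 and 70.9 FPKM in GL and 43.9, 52.6 and 60.4 FPKM in control. Of 21 tested genes of glycolysis and the pentose phosphate pathway 19 lay above 0 (median 0.18), and LDHB, a lactate dehydrogenase subunit, had 8046, 7217 and 7824 FPKM in GL and 6223, 6374 and 4988 FPKM in control. With log2 library size as a covariate the medians of both lists lay below 0. Of 28 tested nuclear genes of oxidative phosphorylation the median was −0.05, of 23 tested proteasome genes −0.002, of 21 tested autophagy and lysosome genes 0.16 and of 17 tested genes of water channels and ion transport 0.11.

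**Figure D5:**
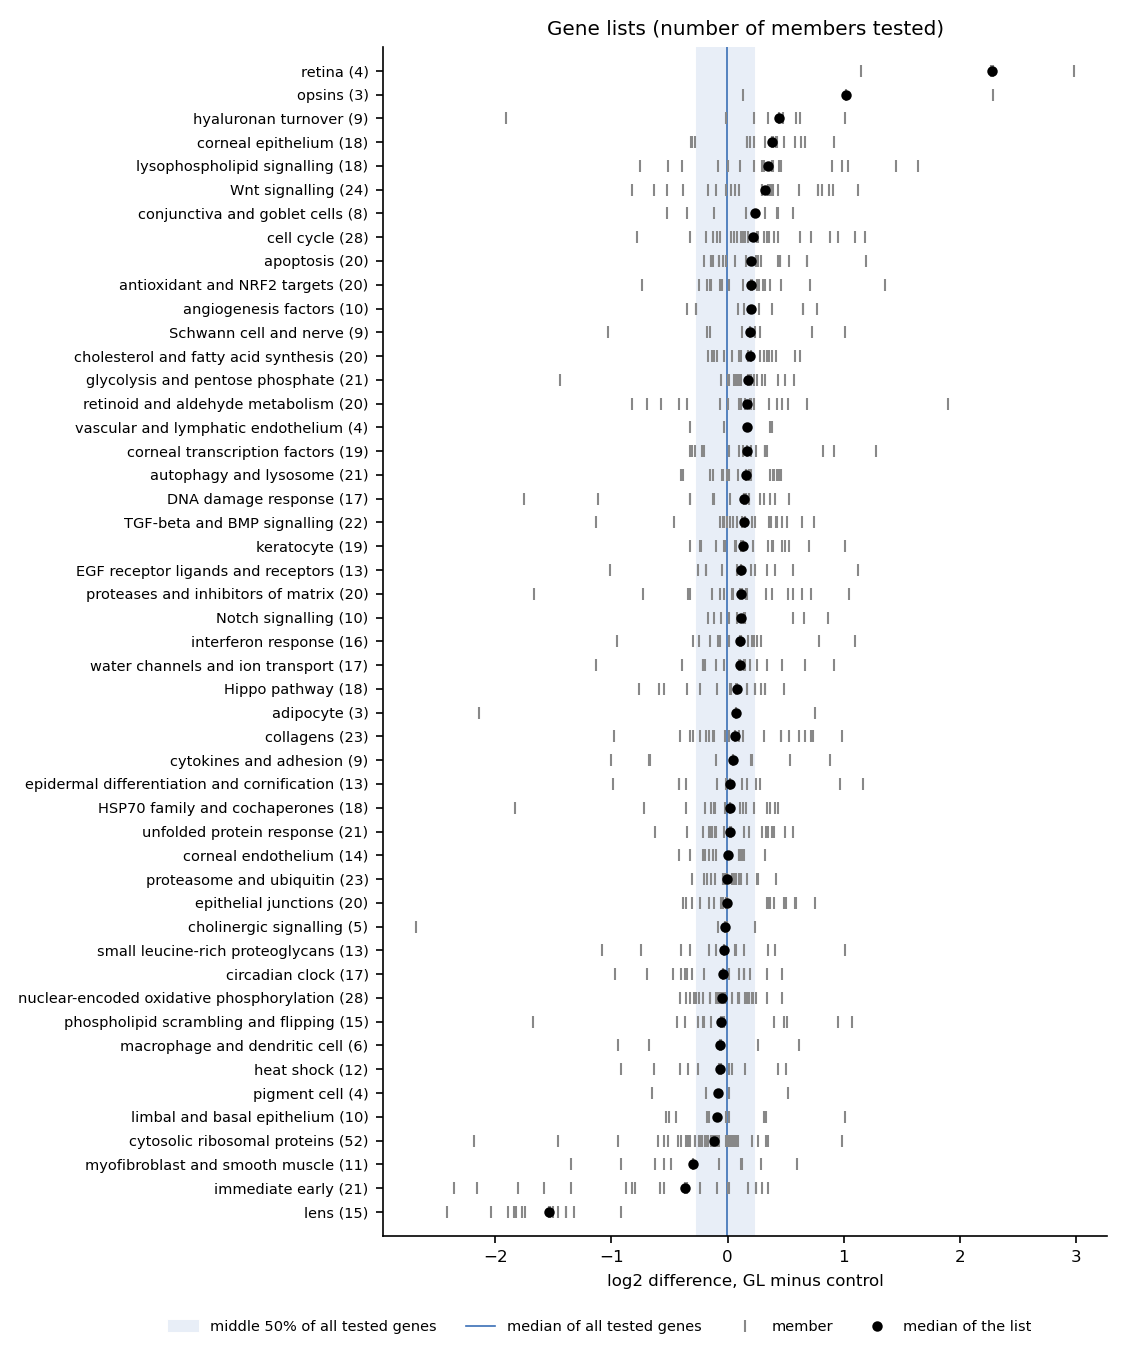
Each tick is the log2 difference, GL minus control, of 1 tested member of a gene list and each dot the list's median, for lists with at least 3 tested members. The line and band are the median and the middle 50% of all 13248 tested genes. The medians of most lists fall inside the band, and the lens and retina lists lie farthest from 0 on either side.

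GL was also set against the mean of blue_light and RL, to ask where it stood apart from the other light groups. By edgeR's adjusted test 16 of 13248 genes (0.121%) changed, 6 higher (0.0453%) and 10 lower (0.0755%), and 2160 (16.3%) had an unadjusted p below 0.05. This comparison shares its GL libraries with the one against control. The lower genes were HSPA13, 8 RPL17 copies and LOC100344965, annotated as a coupling factor of ATP synthase. That last entry stood at 10.2, 10.1 and 8.71 FPKM in GL, against 67.5, 49.1 and 52.2 FPKM in blue_light and 11.3, 8.72 and 10.5 FPKM in RL, so only the blue_light libraries stood apart. SPOCK2, a secreted proteoglycan of the testican family, was the first of the higher genes, at 9.503, 11.3 and 11.1 FPKM in GL, against 4.502, 4.66 and 4.38 FPKM in blue_light and 5.06, 6.19 and 4.95 FPKM in RL. The difference was log2 1.11 ± 0.14 SE (adjusted p = 0.00838), and control libraries stood between, at 6.33 to 8.15 FPKM. SDK1 had 2.21 to 2.68 FPKM in blue_light and 1.02 to 1.30 FPKM in RL, below every GL library (log2 1.61 ± 0.23 SE, adjusted p = 0.0127). HPN (log2 1.16, adjusted p = 0.0312), TMEM30B (1.13, 0.0236) and the histone deacetylase gene HDAC5 (0.89, 0.0468) were higher too. TEAD1, the DNA-binding partner of YAP1, had 21.2 to 25.9 FPKM in GL, 22.3 to 28.3 FPKM in blue_light, 1.91 to 4.42 FPKM in RL and 21.9 to 25.97 FPKM in control (GL minus the light-group mean, log2 1.499 ± 0.206 SE, adjusted p = 0.0112), so only the RL libraries stood apart. The count was 4 without GL library 1, 32 without GL 2, 7 without GL 3 and 0 without the 3 retinal libraries. Without GL library 3 the calls of all 6 higher genes ended. With log2 library size as a covariate those of SPOCK2, SDK1, HPN, TMEM30B and HDAC5 ended. They ended too with a covariate for the 5 libraries with many genes at low counts. Either covariate also ended the calls of the lower entries LOC100355319, LOC100352781 and LOC100344965. The 5 libraries are blue_light 1 to 3, RL 1 and control 1, so that covariate largely moves with the groups compared.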

How the data were processed

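RNA was sequenced from 12 rabbit cornea libraries. Per the labels' protocols, RNA was harvested with an RNeasy kit, and 1.3 ug of total RNA went into a SMARTer mRNA-seq library. Per the file headers, the authors deposited a table of estimated counts and FPKM values for each gene in each library. The submitters' processing notes name GRCm38 and mm10, mouse builds, whereas the table lists genes on rabbit sequences. The sources used here name no aligner, counter or rabbit build. Chromosome names come from 250 gene names in the table that carry one, over 22 sequences. The deposited FPKM is 0.0001 where a count is 0, which was read as 0.

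The deposited counts are whole numbers, so rounding moved nothing. They were fitted with edgeR 4.0.16 (R 4.3.3, glmQLFit and glmQLFTest, TMM scaling) over all 12 libraries with 4 group means, and Benjamini-Hochberg adjustment ran over all 13248 genes. A gene counted as changed at an adjusted p below 0.05. CPM relates a count to the library total after TMM scaling. The floor of detection was 3 fragments per library, with 3.74 counts taken as 1 fragment. The libraries carry no molecular identifiers, so floors cover counting error only. The procedure was tested on simulated data.

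Gene names came from the table, or for 38 of 925 list genes found from the RefSeq symbol of an entry without one. The members and the 51 gene lists were chosen with earlier results of these data known. Named genes were all changed genes, the 15 genes with a symbol in each direction with the smallest p among those without overlap and with a mean FPKM of at least 2, up to 4 members of each list with the smallest p, 17 corneal, clock and opsin genes, and the relatives of changed copies. Some of these are not reported here. Alternatives used limma 3.58.1, DESeq2 1.42.0, other scaling, filters, covariates and subsets of libraries. A fit of 7 libraries was chosen after seeing the data.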

Additional observations from a re-analysis of the deposited data

How the results depend on the processing

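Against control, 10 genes changed, and 7 to 13 did so under the other edgeR and limma settings of scaling, filter, pseudocount and count scale. The number was 31 in a fit of the 6 GL and control libraries alone, 20 in a fit of the 7 libraries with fewer genes at low counts, 92 with DESeq2 (37 higher, 55 lower), 63 with limma voom and sample quality weights (32 higher, 31 lower), 5 with log2 library size as a covariate and 1 without the 3 libraries with retinal transcripts. It ran from 3 to 22 on leaving out 1 library at a time. Against the mean of blue_light and RL, 16 genes changed, and 299 did so with DESeq2, 95 with limma voom, 9 with log2 library size as a covariate and 0 by edgeR without the 3 retinal libraries, where 586 had an unadjusted p below 0.05. That number ran from 4 to 32 on leaving out 1 GL library. The cause of these shifts was not tested, except that leaving out libraries lowers the number of samples.

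Same-numbered GL and control libraries deviated from their group means with r = 0.07, −0.0353 and −0.0509, so the numbers were not taken as pairs. With a replicate block 13 genes changed against control and 15 against the other light groups. In that fit POLI passed (log2 −1.63, adjusted p = 0.015) and OPN5 turned to log2 −0.047, while HPN, HDAC5, LOC100352781 and LOC100344965 no longer passed against the light groups.

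Over 99 of the named genes and up to 21 alternatives, 1946 of 2060 values kept their sign and side of the threshold. In 45 a call ended, and in 64 a gene passed, 49 of these with DESeq2 or voom. In 5 the sign turned. COL1A1 was at −0.36 with log2 library size as a covariate. On leaving out 1 library at a time, GUCA1B ran from −1.63 (without GL 3) to 11.18 and OPN5 from −0.24 (without GL 2) to 0.47. KERA and DCN, with fitted differences of log2 −0.10 and −0.03, are not in this tally. They kept their sign in 16 and 15 of 21 alternatives. Depth limits all genes near 1 FPKM, and 3 libraries a side limit the smallest exact p to 0.1.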
